A study of Canis lupus familiaris with 29 samples.

Results

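Dog kidney cells exposed to hepatocyte growth factor (HGF) were compared between collagen culture and flat culture, level against level. The first group, 3D HGF, was MDCK cells (Madin-Darby canine kidney, type II) grown in collagen with HGF, on 4 arrays. The second, 2D HGF, was the same line grown on transwell filters with HGF, on 4 arrays, and neither group received a kinase inhibitor. These 8 of the series' 29 arrays were taken by their titles, and all messenger RNA levels are log2 values per probe set as deposited. Of the other arrays, 4 untreated 3D control and 4 untreated 2D control arrays give the same culture difference without HGF. Arrays with HGF and PD-98059 (3 in 3D, 4 in 2D) or with HGF and U0126 (3 in 3D, 3 in 2D), both inhibitors of the kinase MEK, give it under MEK inhibition. All groups are 1 established line in culture, so nothing here samples different animals, and neither the HGF dose nor the times are given in the sources used here. Nothing says that the 4 arrays of a group came from separate cultures, so the p-values measure only how arrays spread, possibly for technical reasons. That spread is estimated within groups over all 29 arrays, and the small number of arrays sets the precision.

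HGF is the ligand of the receptor tyrosine kinase MET, which signals through the adaptor GAB1 to the RAS, ERK and PI3 kinase pathways. In flat MDCK islands HGF loosens cell contacts and the cells scatter, whereas in collagen, where MDCK cells form hollow cysts, HGF makes cysts extend branching tubules. Tubule growth needs collagenases that open a path in the gel, transient loosening of junctions and later restored polarity around a lumen. These are background facts on the model, and the arrays record no cell shape.

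Differences are given as 3D HGF minus 2D HGF on the log2 scale ± the standard error of limma's fit, so a negative value means a lower level in 3D HGF, and "passed" means an adjusted p under 0.05. A group mean under log2 5 is called dim, and a fold that involves a dim mean rests partly on background signal. Of 6862 genes with a tested probe set, 4530 passed (66.0%), 1955 of them higher in 3D HGF (28.5%) and 2575 lower (37.5%). With at least 2-fold in addition, 616 genes were higher (8.98%) and 1081 lower (15.8%), and in 3816 (55.6%) the 4 arrays of each group did not overlap. Over the 16571 tested probe sets, 10703 passed (64.6%), 4791 higher (28.9%) and 5912 lower (35.7%), 1684 (10.2%) and 2531 (15.3%) by at least 2-fold, and 8858 (53.5%) did not overlap. With no filter 17408 of 42924 probe sets were higher and 6353 lower. Most of the added ones came from probe sets under the filter and were higher in 3D HGF, and the cause of this lean was not tested. The median difference over all genes was -0.062. With calls this frequent, a list is read against these shares and this median. Differences given without an error belong to list members outside the naming rule, picked with their values known. Each gene is given by its probe set with the highest mean. Among the genes given with an error, no other probe set passed the same way as the one given for VLDLR, DEPTOR, IFI44L, TMEM67, IFT22, LAMB3, ADAM9, OCLN, PATJ, CENPF, HIF1A, HMGCS1, ITGB1, RAB11A, SERPINE2 and SHC1. Median centring of the arrays moves the median over all probe sets by 0.118, so differences of that size have no settled sign.

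The 3D HGF arrays varied more among themselves than those of any other group. Their weakest pairwise correlation was 0.964, while every other group kept 0.987 or more. Their mean absolute deviation from the group mean was 0.235, against 0.117 to 0.149 in the other groups. Because the fit shares its spread over all groups, the errors, intervals and adjusted p given here can be too small for this comparison. Limma's array weights put 3D HGF replicates 1 and 4 lowest, at 0.162 and 0.321. An RNA-quality index, the mean 3′ minus 5′ or middle difference of 3 control transcripts (ACTB, GAPDH and EEF1A1), was 1.68 ± 0.583 in 3D HGF and 0.838 ± 0.0476 in 2D HGF (SD, n = 4 each). It differed by 0.839 (exact two-sided permutation p = 0.0286, the smallest that 4 against 4 arrays can give). Several calls below were lost with this index as a covariate or without replicates 1 and 4. The 8 fibroblast, 5 endothelial and 4 podocyte markers and 6 of 7 leukocyte markers either did not reach log2 5 in 3 arrays or had no probe set, and so were not tested. The leukocyte list's other member, CD68, a lysosomal protein, was dim in 3D HGF and averaged 2.94 ± 0.081 in 3D HGF and 5.77 ± 0.92 in 2D HGF (difference -2.83 ± 0.25, adjusted p = 2.12e-10). Of 10 kidney epithelial markers 7 were tested, and CDH1, PAX8 and PAX2 were too dim to test. A dim probe set does not show that its gene is silent. ACTB and GAPDH, control transcripts of the index above, were not tested either, as their listed probe sets reached at most log2 2.23 and 4.09. EPCAM, the epithelial adhesion molecule, averaged 13.97 in 3D HGF and 14.20 in 2D HGF, and the kidney cadherin CDH16 12.26 in 3D HGF and 12.45 in 2D HGF, both far above the dim range. CDH16 did not pass by this probe set (-0.19 ± 0.15), the one with the highest mean, but its other 2 probe sets passed as lower (-1.49 ± 0.14 and -2.09 ± 0.25, adjusted p = 1.1e-09 and 6.27e-08). Of these 7, 0 were higher in 3D HGF and 4 were lower, beside 28.5% and 37.5% of all genes. The lower ones were EPCAM at -0.22 ± 0.10, OCLN at -0.52 ± 0.091, KRT8 at -0.58 ± 0.093 and CLDN4 at -2.70 ± 0.21. EPCAM did not pass in 10 of its 19 alternatives, median centring among them (adjusted p = 0.279), and it did not pass without 3D HGF replicate 2 or 4 or 2D HGF replicate 1, 2 or 3 (adjusted p = 0.0569 to 0.235) or without 3D HGF replicates 1 and 4 (adjusted p = 0.271). In bulk RNA, fewer cells of a kind and less RNA per cell cannot be told apart.

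**Figure D1:**
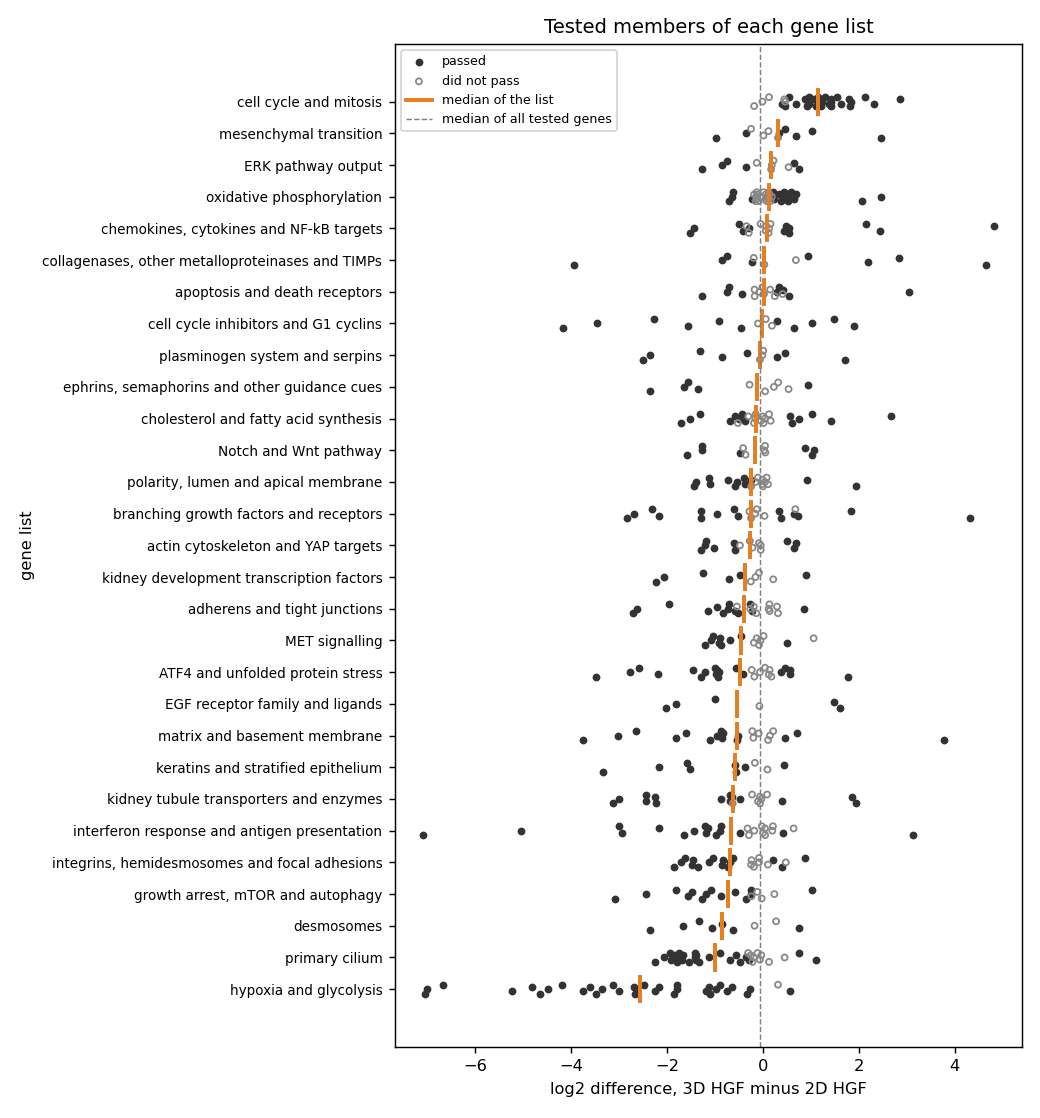
Each row is a gene list, with 1 of the 30 left out, and each point a tested member, at its log2 difference 3D HGF minus 2D HGF. Filled points passed, open points did not, the orange bar is the list's median and the dashed line the median of all tested genes (-0.062). Cell cycle genes lie farthest to the right, with a median of 1.15, and hypoxia and glycolysis genes farthest to the left, with a median of -2.56.

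The hypoxia and glycolysis genes were the farthest from the median of all genes among the 30 lists, and nearly all were lower in 3D HGF. Hypoxia-inducible factor, built from HIF1A and a constant partner, switches on glucose uptake, glycolysis and blood vessel signals when oxygen is low, and the prolyl hydroxylases EGLN1 and EGLN3 mark its HIF1A subunit for destruction. Of 34 tested members 32 passed as lower in 3D HGF (beside 37.5% of all genes) and 1 higher, 26 of the lower ones by at least 2-fold, with a list median of -2.56. EGLN3 itself read 2.31, 2.26, 2.27 and 2.19 in the 3D HGF arrays, against 9.31, 9.15, 9.10 and 9.49 in the 2D HGF arrays. All 3D HGF arrays were dim and all 2D HGF arrays were far above them, a 129-fold lower level (difference -7.01 ± 0.39, adjusted p = 4.06e-14), or 19.2-fold with levels under log2 5 raised to 5. SLC16A3, the lactate exporter of glycolytic cells, read 1.75, 3.38, 1.72 and 1.75 in the 3D HGF arrays, against 9.35, 8.69, 9.18 and 9.55 in the 2D HGF arrays. ADM, which encodes the peptide hormone adrenomedullin, read 9.0, 8.78, 8.92 and 8.77 in the 3D HGF arrays, against 15.58, 15.52, 15.47 and 15.56 in the 2D HGF arrays. Both groups of ADM were well above the dim range, so its 102-fold lower level (difference -6.67 ± 0.15, adjusted p = 1.55e-21) does not rest on background.

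The same direction held along the glycolytic route and in other HIF targets. ANGPTL4, a secreted inhibitor of lipoprotein lipase, differed by -5.23 ± 0.17, to a dim mean in 3D HGF, and BNIP3L, a receptor for the removal of mitochondria, by -4.81 ± 0.19. BNIP3L read 6.29, 5.95, 5.69 and 5.92 in the 3D HGF arrays, against 10.74, 10.65, 10.99 and 10.69 in the 2D HGF arrays, with a gap between the groups of over 4 log2 units. The glucose transporter SLC2A1 averaged 12.10 ± 0.21 in 3D HGF and 14.36 ± 0.076 in 2D HGF (SD, n = 4 each), a 4.76-fold lower level. Among enzymes the neuronal enolase ENO2, dim in 3D HGF, differed by -4.65 ± 0.16, the aldolase ALDOC by -4.48, the regulator of fructose-2,6-bisphosphate PFKFB3 by -2.48 and pyruvate dehydrogenase kinase PDK1 by -3.35. The abundant forms ALDOA, PGK1, ENO1 and LDHA were lower too, at -0.98, -1.1, -0.32 and -0.27. HIF1A was the member that was higher, with 13.39, 13.59, 13.68 and 13.41 in the 3D HGF arrays, against 13.03, 12.81, 13.01 and 12.91 in the 2D HGF arrays (difference 0.58 ± 0.10, adjusted p = 1.34e-05). SLC16A1, another lactate transporter, did not pass (0.32).

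**Figure D2:**
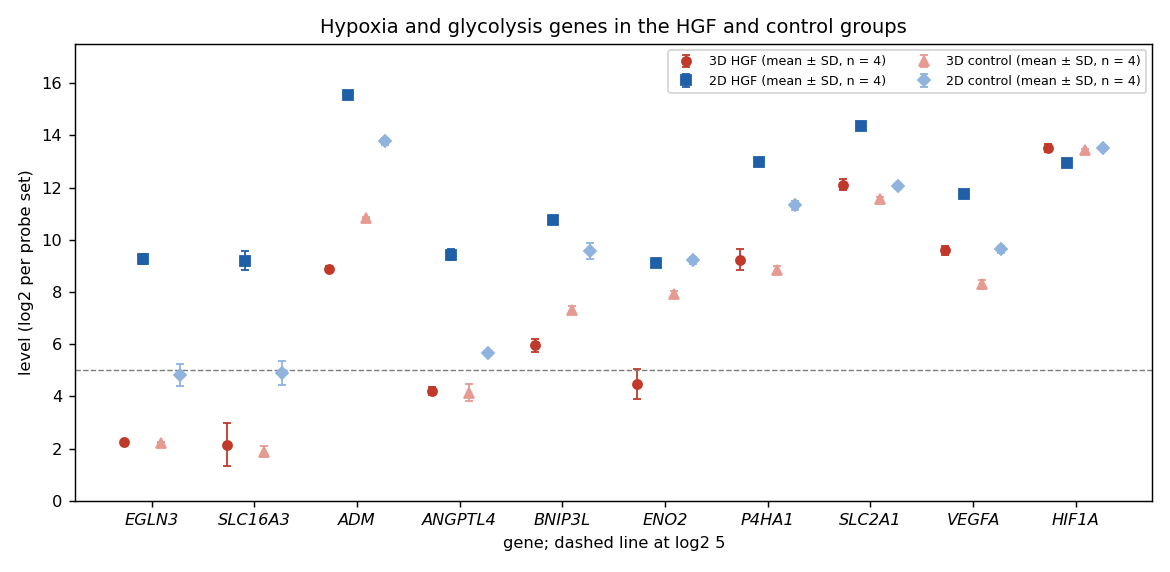
Group means ± SD (n = 4 arrays) of 10 hypoxia and glycolysis genes on the log2 scale, in 3D HGF, 2D HGF, 3D control and 2D control. For the 9 genes from EGLN3 to VEGFA 2D HGF lies above 3D HGF, and for HIF1A it lies below.

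Without HGF the list leaned the same way. In untreated cells 25 of the 34 genes were lower in 3D and 1 higher, with a median of -0.81, where 28.3% of all genes were lower and 24.7% higher. The change in the culture difference, with HGF minus without, was tested as an interaction in the same fit. It was lower in 26 of these genes and higher in 1, HIF1A, where 28.5% of all genes were lower and 20.9% higher. EGLN3 averaged 2.23 in 3D control and 4.81 in 2D control, ADM 10.83 in 3D control and 13.77 in 2D control, and VEGFA, the vessel growth factor, 9.59 in 3D HGF and 11.74 in 2D HGF, beside 8.29 in 3D control and 9.64 in 2D control. With PD-98059 in both cultures 27 were lower in 3D (beside 24.2% of all genes) and with U0126 27 (beside 24.6%), with medians of -1.40 and -1.11. Over every alternative run, the list's count lower in 3D HGF stayed at 31 or 32.

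Cell cycle and mitosis genes leaned the other way. Of 35 tested, 30 were higher in 3D HGF (beside 28.5% of all genes) and 0 lower, with a median of 1.15 beside -0.062 over all genes. CCNE1, the cyclin that opens S phase, read 9.80, 9.60, 9.59 and 9.24 in the 3D HGF arrays, against 6.69, 6.89, 6.59 and 6.6 in the 2D HGF arrays. Its 3D HGF arrays all lay above its 2D HGF arrays, a 7.26-fold higher level (difference 2.86 ± 0.11, adjusted p = 2.71e-17). The helicase subunit MCM3 averaged 8.90 ± 0.86 in 3D HGF and 6.59 ± 0.22 in 2D HGF and the origin factor ORC1 11.45 ± 0.20 in 3D HGF and 9.33 ± 0.21 in 2D HGF, with CDC45 at a difference of 1.81 ± 0.18. MCM2, MCM4, MCM5, MCM6 and MCM7 were higher by 1.20, 1.06, 1.54, 0.68 and 1.1. Mitotic genes were higher too, the anaphase activator CDC20 by 1.62, the spindle kinase AURKA by 1.15, PLK1 by 1.16 and CDK1 by 1.24. ZWILCH, a kinetochore checkpoint protein outside the list, read 8.03, 8.81, 8.80 and 8.97 in the 3D HGF arrays, against 4.89, 4.95, 5.19 and 4.83 in the 2D HGF arrays, with a dim mean in 2D HGF, and was 12.9-fold higher. CENPF, another kinetochore gene, was higher (1.84 ± 0.67) with overlapping arrays and lost its call once 3D HGF replicates 1 and 4 were left out (adjusted p = 0.249) or with the RNA-quality covariate (adjusted p = 0.302), nor did it pass without 3D HGF replicate 1 or 2D HGF replicate 1 (adjusted p = 0.0693 and 0.0788). TTK (0.45), BUB1B (0.47), CDT1 (0.13), CDC25C (-0.0071) and NUSAP1 (-0.18) did not pass.

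The cell cycle genes leaned the same way in the other pairs of cultures. Of the 35, 33 were higher in 3D in untreated cells, 31 with PD-98059 and 34 with U0126 (beside 24.7%, 28.6% and 18.4% of all genes), and 0 were lower in each of these. The list median was 1.55 in untreated cells, 1.16 with PD-98059 and 1.35 with U0126. The culture difference was lower with HGF than without in 15 and higher in 3 (beside 28.5% and 20.9% of all genes), with a median change of -0.46.

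Genes that regulate G1 differed in both directions. CDKN2B, the p15 inhibitor of CDK4 and CDK6, read 2.97, 3.45, 3.74 and 3.40 in the 3D HGF arrays, against 6.99, 6.82, 7.11 and 6.49 in the 2D HGF arrays, dim in 3D HGF and clearly above in 2D HGF (difference -3.46 ± 0.17). CCNG2, a cyclin of resting cells, differed by -4.18 ± 0.19, to a dim mean in 3D HGF, GADD45B, a stress inhibitor of the cell cycle, by -2.27 ± 0.21, and the pocket protein RBL2 by -1.56 ± 0.11. In contrast CDK6 was higher by 1.90 ± 0.25, from a dim mean in 2D HGF, the p19 inhibitor CDKN2D by 1.49 ± 0.13, the p18 inhibitor CDKN2C by 1.02 ± 0.15 and cyclin D1 (CCND1) by 0.64 ± 0.12. CDKN1A, the p21 inhibitor, averaged 11.63 ± 0.24 in 3D HGF and 12.08 ± 0.20 in 2D HGF (difference -0.45 ± 0.19, adjusted p = 0.0437). Its groups overlapped, and it did not pass without 3D HGF replicate 2, 3 or 4 or 2D HGF replicate 1, 3 or 4 (adjusted p = 0.0655 to 0.138), nor without 3D HGF replicates 1 and 4 (adjusted p = 0.0953), nor with median centring (adjusted p = 0.121). In untreated cells CDKN1A and CDKN2B differed the other way, by 3.55 ± 0.19 and 1.49 ± 0.17, and the tests of the change between states gave -4.0 ± 0.27 and -4.95 ± 0.24 (adjusted p = 1.08e-11 and 1.94e-14). Over the whole list 5 of 14 tested genes were higher and 6 lower, beside 28.5% and 37.5% of all genes.

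Collagen-cutting proteases were higher in 3D HGF, while of their inhibitors TIMP2 was lower and TIMP1 and TIMP3 did not pass. Of 11 metalloproteinase and TIMP genes tested, 4 were higher and 4 lower, beside 28.5% and 37.5% of all genes. MMP1, the interstitial collagenase, read 9.54, 9.59, 10.81 and 11.17 in the 3D HGF arrays, against 5.27, 6.15, 3.66 and 7.42 in the 2D HGF arrays. The 2D HGF arrays spread over nearly 4 log2 units and none reached the lowest 3D HGF array, a 25.1-fold higher level (difference 4.65 ± 0.44, 95% interval 3.74 to 5.57, adjusted p = 1.13e-09). MMP13, the broad collagenase, read 12.93, 12.81, 13.22 and 13.39 in the 3D HGF arrays, against 10.88, 10.39, 11.18 and 11.15 in the 2D HGF arrays. It was abundant in both cultures, with no overlap (difference 2.19 ± 0.34). MMP9, a gelatinase, was dim in 2D HGF, with means of 6.69 ± 0.33 in 3D HGF and 3.83 ± 0.28 in 2D HGF, and differed by 2.85 ± 0.24. MMP2, the other gelatinase, was higher by 0.94 ± 0.23, but not with the RNA-quality index as covariate (0.29, adjusted p = 0.38). TIMP1, which blocks these enzymes, averaged 13.66 ± 0.27 in 3D HGF and 13.85 ± 0.088 in 2D HGF and did not pass (-0.19 ± 0.28, adjusted p = 0.569, 95% interval -0.76 to 0.38). TIMP3 did not pass either (0.69, adjusted p = 0.0512). TIMP2 read 3.57, 4.09, 3.85 and 3.34 in the 3D HGF arrays, against 7.96, 7.77, 7.54 and 7.32 in the 2D HGF arrays, dim in every 3D HGF array and separate from 2D HGF (difference -3.93 ± 0.22, or -2.65 with the floor at log2 5). BSG, a surface inducer of metalloproteinases, and the sheddase ADAM9 were lower, at -0.85 ± 0.18 and -0.75 ± 0.19. MMP14, the membrane protease of tubule formation, was not tested, as its probe set was dim in every array, which does not show that the gene is silent.

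**Figure D3:**
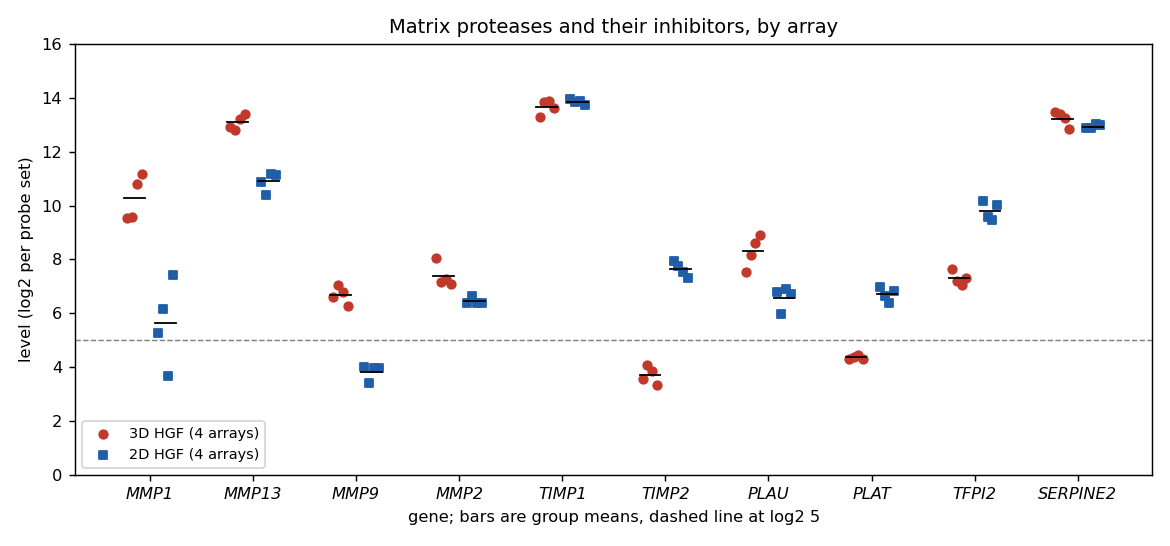
Log2 levels of 10 protease and inhibitor genes in each 3D HGF array and each 2D HGF array, with bars at the group means. MMP1, MMP13, MMP9, MMP2 and PLAU lie higher in 3D HGF, TIMP2, PLAT and TFPI2 lower, and the arrays of TIMP1 and SERPINE2 overlap.

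The 2 plasminogen activators differed in opposite directions. Urokinase (PLAU), the cell-surface activator of migrating cells, read 7.52, 8.18, 8.59 and 8.90 in the 3D HGF arrays, against 6.79, 5.96, 6.89 and 6.70 in the 2D HGF arrays. Every 3D HGF array lay above every 2D HGF array (difference 1.71 ± 0.25, adjusted p = 1.3e-06). Tissue plasminogen activator (PLAT) read 4.30, 4.37, 4.47 and 4.30 in the 3D HGF arrays, against 6.99, 6.64, 6.37 and 6.83 in the 2D HGF arrays, dim in 3D HGF and above in all 2D HGF arrays (difference -2.35 ± 0.14). The protease inhibitor TFPI2 averaged 7.30 ± 0.25 in 3D HGF and 9.80 ± 0.33 in 2D HGF (difference -2.50 ± 0.23), SERPINB8 differed by -1.30 ± 0.10, and the membrane serine protease PRSS8 by -0.84 ± 0.16. SERPINE2, an inhibitor of thrombin and urokinase, differed by 0.29 ± 0.12 (adjusted p = 0.0422) with overlapping arrays, and by -0.063 with the RNA-quality covariate, where it did not pass. Nor did it pass without 3D HGF replicate 1, 2 or 3 or 2D HGF replicate 1, 2 or 4 (adjusted p = 0.0561 to 0.151). Of 11 tested members 3 were higher and 5 lower, beside 28.5% and 37.5% of all genes, and with that covariate 1 was higher. The culture difference was lower with HGF than without in 8 of the 11 and higher in 0 (beside 28.5% and 20.9% of all genes). It changed by -7.48 ± 0.33 for TFPI2 and by -3.91 ± 0.20 for PLAT. MMP1 went the other way, with 0.074 ± 0.44 in untreated cells, where both means were dim, and a test of the change of 4.58 ± 0.63.

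The HGF receptor and some of the genes listed with its signalling were lower in 3D HGF, while others did not pass. MET read 8.36, 8.72, 9.07 and 9.47 in the 3D HGF arrays, against 10.10, 9.98, 10.02 and 9.84 in the 2D HGF arrays. No 3D HGF array reached the lowest 2D HGF array, a 2.12-fold lower level (difference -1.08 ± 0.16, adjusted p = 2.45e-06). Its adaptor GAB1 differed by -1.21 ± 0.20, to a dim mean, the plexin PLXNB2 by -1.05 ± 0.21, the related receptor MST1R by -0.69 and LRIG3, of a family of receptor regulators, by -0.91 ± 0.13. STAT3, a transcription factor downstream of MET, was lower, at -0.86, as was the catalytic PI3 kinase subunit PIK3CA, at -0.90 ± 0.23, the last of these not with the RNA-quality covariate (adjusted p = 0.392). GRB2 (1.06), SOS1 (0.016), CRKL (-0.13) and PTK2 (-0.08) did not pass. SHC1, an adaptor, was the member that was higher (0.51 ± 0.18, adjusted p = 0.0184), with overlapping arrays, and its sign turned with the RNA-quality covariate (-0.069, adjusted p = 0.806). It also did not pass without 3D HGF replicate 1 or 2 (adjusted p = 0.104 and 0.0548). In total, 8 of 15 tested genes were lower and 1 higher, beside 37.5% and 28.5% of all genes. In untreated cells MET did not differ past the threshold (-0.24 ± 0.16, adjusted p = 0.234), and the change between states was -0.84 ± 0.23 (adjusted p = 0.00398).

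EGF-family genes differed in both directions, 2 of 6 higher and 3 lower (beside 28.5% and 37.5% of all genes). The receptors EGFR and ERBB3 were lower, at -1.0 ± 0.12 and -1.80 ± 0.14, and EGFR read 11.38, 11.09, 11.20 and 10.84 in the 3D HGF arrays, against 12.17, 11.98, 12.12 and 12.24 in the 2D HGF arrays, without overlap. Of the ligands, epiregulin (EREG) was higher, with 6.94, 6.72, 6.86 and 7.56 in the 3D HGF arrays, against 5.65, 5.0, 4.86 and 6.16 in the 2D HGF arrays, and neuregulin 1 (NRG1) was higher by 1.49 ± 0.12, whereas EGF was lower, at -2.02 ± 0.15. ERBB4 did not pass (-0.071).

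Genes that report ERK activity differed in both directions. Of 11 tested, 2 were higher and 4 lower, beside 28.5% and 37.5% of all genes. The list median of 0.17 became -0.075 with the RNA-quality covariate. The immediate early genes EGR1 and FOS were lower, at -1.27 ± 0.27 and -0.86 ± 0.095. DUSP5, a nuclear ERK phosphatase, read 9.21, 10.16, 10.07 and 10.23 in the 3D HGF arrays, against 10.73, 10.42, 10.70 and 10.82 in the 2D HGF arrays and was lower, at -0.75 ± 0.20 (adjusted p = 0.0018), but not with that covariate (adjusted p = 0.561). DUSP6, the cytoplasmic ERK phosphatase, averaged 13.71 ± 0.19 in 3D HGF and 13.53 ± 0.039 in 2D HGF, with a 95% interval of -0.0007 to 0.38 for the difference (adjusted p = 0.0753), and passed in 5 alternatives, among them median centring (adjusted p = 0.00189) and the fit without 3D HGF replicate 4 (adjusted p = 0.00959). The EGFR inhibitor ERRFI1 was lower, at -0.35 ± 0.12, but lost its call once 3D HGF replicates 1 and 4 were left out (adjusted p = 0.0786), and PHLDA1 was higher by 0.76 ± 0.20. MYC (-0.13), IER3 (0.22), ETV1 (0.17) and EPHA2 (0.54 ± 0.34) did not pass, and EPHA2, dim in 2D HGF, passed in 3 alternatives, among them the RNA-quality covariate (1.55, adjusted p = 0.00214) and the fits without 3D HGF replicate 1 or 2D HGF replicate 4 (adjusted p = 0.0196 and 0.025).

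Junction genes leaned lower in 3D HGF. Tight junctions seal the space between epithelial cells with claudins and occludin, and adherens junctions join cadherins to catenins. Of 22 tested, 12 were lower and 1 higher (beside 37.5% and 28.5% of all genes), with a median of -0.39. CLDN4, a claudin of the collecting duct, read 6.09, 6.63, 6.87 and 6.84 in the 3D HGF arrays, against 9.53, 9.38, 9.0 and 9.32 in the 2D HGF arrays, with no overlap (difference -2.70 ± 0.21). CLDN3 was lower, at -1.97 ± 0.16, as was CLDN7, at -0.83. CTNND1, the catenin p120 that keeps cadherins at the surface, differed by -2.62 ± 0.18, to a dim mean in 3D HGF, the kidney cadherin CDH6 by -1.13 ± 0.092, a call that 1 of its other 3 probe sets shared, and the plaque protein cingulin (CGN) by -0.95 ± 0.16. OCLN was lower, at -0.52 ± 0.091. CLDN2, the cation-pore claudin, was dim in both groups, at 3.53 in 3D HGF and 4.12 in 2D HGF, and its difference of -0.58 ± 0.20 became 0 with the floor and did not pass without 2D HGF replicate 4 (adjusted p = 0.0657), without 3D HGF replicates 1 and 4 (adjusted p = 0.0878) or with the RNA-quality covariate (adjusted p = 0.166). The member that was higher, CDH3, was dim in 2D HGF, had overlapping arrays (0.86 ± 0.29) and did not pass with the compared groups alone (adjusted p = 0.102), nor without 3D HGF replicate 2 or 4 (adjusted p = 0.0713 and 0.0617). The beta-catenin gene CTNNB1 (0.14), TJP3 (-0.14), CDH2 (0.32), CDH16 (-0.19 ± 0.15, by the probe set with the highest mean) and TJP1 (0.12 ± 0.12) did not pass, and TJP1 passed as higher in 3 alternatives, among them median centring (adjusted p = 0.034), which brought the list's count of higher genes to 4.

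Desmosomes, which tie keratin filaments of neighbouring cells together, had 6 of 9 members lower and 1 higher (beside 37.5% and 28.5% of all genes). Plakoglobin (JUP) read 8.14, 8.53, 8.48 and 8.03 in the 3D HGF arrays, against 10.73, 10.50, 10.58 and 10.76 in the 2D HGF arrays, with no overlap (difference -2.34 ± 0.17). The cytoplasmic linker desmoplakin (DSP) was lower, at -0.86 ± 0.13, as was PERP, at -1.07 ± 0.095. DSG2 (-1.33 ± 0.24) and PKP2 (-1.67 ± 0.38, dim in 3D HGF) were lower with overlapping arrays, but did not pass with the RNA-quality covariate (adjusted p = 0.268 and 0.641). DSC2 was higher by 0.75 ± 0.30 (adjusted p = 0.0327), but not without 3D HGF replicate 1, 3 or 4 or 2D HGF replicate 1 (adjusted p = 0.0552 to 0.146), nor without 3D HGF replicates 1 and 4 (adjusted p = 0.134) or with the RNA-quality covariate (adjusted p = 0.209). DSG3 did not pass (0.28). Among keratin and stratified epithelium genes 7 of 10 were lower and 1 higher (beside 37.5% and 28.5% of all genes). The lower ones were led by suprabasin (SBSN, -3.33 ± 0.24), the envelope protein periplakin (PPL, -2.16 ± 0.10), S100A2 (-1.58 ± 0.11) and S100A14 (-1.52 ± 0.10). The simple-epithelium keratin KRT8 was lower, at -0.58 ± 0.093. Its partner KRT18 did not pass by the probe set with the highest mean (-0.17 ± 0.084), but its other probe set passed as lower (-0.24 ± 0.097, adjusted p = 0.0305). S100A2, like DSP, was higher in 3D in untreated cells (2.48 ± 0.11 and 1.15 ± 0.13), and both changed between states, by -4.06 ± 0.16 and -2.01 ± 0.19.

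Integrin and focal adhesion genes leaned lower as well. Integrins bind collagen, laminin and fibronectin and recruit focal adhesion proteins. Of 23 tested genes 13 were lower and 3 higher (beside 37.5% and 28.5% of all genes), and with the RNA-quality covariate 1 was higher. ITGB8, dim in 3D HGF, and ITGB5, partners of the alpha v chain, were lower, at -1.85 ± 0.25 and -1.70 ± 0.13, as was the chain itself (ITGAV), at -0.84. The collagen-binding integrin ITGA1, dim in 3D HGF, differed by -1.46 ± 0.26, and the collagen receptor kinase DDR2, also dim there, by -1.62 ± 0.23. ITGB4, the hemidesmosome integrin, was lower, at -1.36, as was the laminin chain LAMB3, at -1.47 ± 0.27, the second of these not with the RNA-quality covariate (adjusted p = 0.216). ITGB1, the common beta chain, was higher by 0.89 ± 0.34 with overlapping arrays and did not pass without 3D HGF replicate 1 or 4 or 2D HGF replicate 1 or 4 (adjusted p = 0.0542 to 0.102), nor without 3D HGF replicates 1 and 4 (adjusted p = 0.372) or with the RNA-quality covariate (adjusted p = 0.272). ITGA2, the main collagen receptor of epithelia, did not pass (-0.077).

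Matrix genes had 12 of 21 tested members lower and 3 higher (beside 37.5% and 28.5% of all genes). P4HA1, which hydroxylates collagen and belongs to the hypoxia list too, read 8.67, 9.24, 9.48 and 9.58 in the 3D HGF arrays, against 13.14, 12.86, 12.88 and 13.07 in the 2D HGF arrays, with no overlap (difference -3.75 ± 0.15). The lysyl oxidase LOXL2 differed by -3.03 ± 0.11, the lysyl hydroxylase PLOD1 by -1.61 ± 0.16 and the collagen chain COL5A1 by -1.82 ± 0.14. LAMB2 was lower, at -2.65 ± 0.26, to a dim mean, and LAMB1 higher by 0.71 ± 0.11. GPC3, a heparan sulfate proteoglycan that binds growth factors, read 9.08, 9.19, 9.08 and 8.59 in the 3D HGF arrays, against 5.07, 5.26, 5.01 and 5.50 in the 2D HGF arrays. Its arrays did not overlap, a 13.7-fold higher level (difference 3.77 ± 0.17, adjusted p = 1.05e-15), while untreated cells differed by -0.36 ± 0.17 (adjusted p = 0.0873). Fibronectin (FN1) was higher by 0.47 ± 0.13, but not with the RNA-quality covariate (adjusted p = 0.246). Its other 3 probe sets passed as higher by more, at 2.79 ± 0.34, 3.69 ± 0.33 and 1.78 ± 0.27. COL4A1 (-0.20), LAMC1 (-0.22) and TGFBI (-0.085) did not pass, and COL4A2 was lower, at -0.52.

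Secreted factors that shape branching differed in both directions. Follistatin (FST), which binds activin, read 9.37, 11.34, 9.85 and 8.44 in the 3D HGF arrays, against 5.34, 5.31, 5.27 and 5.81 in the 2D HGF arrays. The 3D HGF arrays spread widely but all lay above 2D HGF, a 20-fold higher level (difference 4.32 ± 0.37, adjusted p = 1.85e-10). BMP4 was higher by 1.85 ± 0.19 and read 7.53, 7.83, 8.22 and 7.48 in the 3D HGF arrays, against 6.12, 5.91, 5.90 and 5.75 in the 2D HGF arrays, without overlap. WNT7A (-2.83 ± 0.23) and FGF1 (-2.68 ± 0.15), dim in 3D HGF, and VEGFA (-2.16 ± 0.15) were lower, as were the BMP targets ID1 (-2.31 ± 0.22) and ID3 (-1.28 ± 0.15) and the receptor FGFR2 (-0.96). INHBA, the activin subunit, did not pass (0.68), nor did BMP7 (-0.16) and BMP2 (0.035). In total, 6 of 21 were higher and 9 lower (beside 28.5% and 37.5% of all genes), and with the RNA-quality covariate 2 were higher. SMAD6 (0.74 ± 0.26), TGFB1 (0.35 ± 0.13), TGFB3 (0.38 ± 0.12) and CCN2 (0.65 ± 0.14) no longer passed with it. SMAD6 also did not pass without 3D HGF replicate 1 or 2D HGF replicate 1 (adjusted p = 0.106 and 0.104), TGFB1 without 3D HGF replicate 2 or 3 or 2D HGF replicate 4 (adjusted p = 0.0588 to 0.0848), and TGFB3 without 2D HGF replicate 1 (adjusted p = 0.0522). Without 3D HGF replicates 1 and 4 SMAD6 and TGFB3 did not pass (adjusted p = 0.172 and 0.0771).

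In the Notch and Wnt list the secreted modulator DKK3 (-1.57 ± 0.23), dim in 3D HGF, the planar polarity gene PRICKLE1 (-1.28 ± 0.11) and the receptors FZD2 (-1.26 ± 0.12) and FZD6 (-0.47 ± 0.12) were lower. LGR4, a receptor for R-spondins, was higher by 1.06 ± 0.23 and VANGL1, another planar polarity gene, by 0.88 ± 0.13. The Notch gene RBPJ was higher too (adjusted p = 0.0163), and its other probe sets passed as higher, by 0.97 ± 0.22 and 1.12 ± 0.47. In total, 3 of 12 tested genes were higher and 4 lower, beside 28.5% and 37.5% of all genes. The Wnt target AXIN2 (-0.36) and the co-receptor LRP6 (0.047) did not pass. Among guidance cues PLXNA2 (-2.36 ± 0.15), SEMA4B (-1.64 ± 0.24), SEMA5A (-1.56 ± 0.17) and ephrin A1 (EFNA1, -1.34 ± 0.094) were lower and the receptor EPHA1 was higher (0.93 ± 0.13).

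Polarity genes, which set the apical side and the lumen, had 10 of 21 lower and 2 higher (beside 37.5% and 28.5% of all genes). CRB3, an apical determinant, read 5.64, 6.15, 6.52 and 5.87 in the 3D HGF arrays, against 7.63, 7.17, 7.65 and 7.47 in the 2D HGF arrays, with no overlap (difference -1.43 ± 0.19). The lumen mucin MUC1 was lower, at -1.40 ± 0.11, as was the basolateral determinant LLGL1, at -1.1 ± 0.20. RAB11A, a regulator of apical recycling, was lower, at -0.72 ± 0.089, but its other probe set passed the other way, at 0.37. RAB27A, a regulator of secretion, was higher by 1.94 ± 0.35, from a dim mean, and PATJ, a Crumbs complex scaffold, by 0.91 ± 0.20. PRKCZ (-0.0076), PRKCI (0.11), PARD6A (0.081), EZR (0.047) and RAC1 (0.0009) did not pass.

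Transport genes of the kidney tubule were lower in 11 of 21 cases and higher in 3 (beside 37.5% and 28.5% of all genes). FXYD2, the gamma subunit of the sodium pump, read 9.19, 9.25, 9.36 and 8.99 in the 3D HGF arrays, against 12.19, 11.68, 12.61 and 12.31 in the 2D HGF arrays, with no overlap (difference -3.0 ± 0.15). The endocytic receptor cubilin (CUBN) was lower, at -2.44 ± 0.11, the scaffold PDZK1 at -2.43 ± 0.20 and the efflux pump ABCC2 at -3.12 ± 0.22, PDZK1 and ABCC2 with dim means. With the floor at log2 5 ABCC2 differed by -1.19, and its other probe set differed by -0.54 ± 0.22 (adjusted p = 0.0354). The enzyme GGT1 was lower, at -2.23, as was ATP1B1, the beta subunit of the sodium pump, at -0.68. The bicarbonate transporter SLC4A7 was higher by 1.95 ± 0.32. ABCC4, dim in 2D HGF and also higher (1.87 ± 0.53), had overlapping arrays and lost its call once 3D HGF replicates 1 and 4 were left out (adjusted p = 0.0632). CUBN, FXYD2, PDZK1 and ABCC2 were lower in 3D without HGF too, at -1.79 ± 0.11, -2.31 ± 0.15, -2.53 ± 0.20 and -2.83 ± 0.22. Among transcription factors of kidney development ELF3 (-2.23 ± 0.16, to a dim mean), EHF (-2.07 ± 0.13) and IRX3 (-1.24 ± 0.15) were lower, and GRHL2, an activator of epithelial genes, was higher (0.91 ± 0.25), though not with the RNA-quality covariate (adjusted p = 0.0995).

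The primary cilium is a sensory antenna of resting tubule cells built by intraflagellar transport (IFT). Of its 34 tested genes 23 were lower and 2 higher, beside 37.5% and 28.5% of all genes. The list median was -1.01, or -0.77 with levels under log2 5 raised to 5. WDR19, of the retrograde transport complex, read 3.98, 4.06, 4.01 and 4.01 in the 3D HGF arrays, against 6.24, 6.12, 6.09 and 5.84 in the 2D HGF arrays, dim in 3D HGF and separate (difference -2.06 ± 0.15). OFD1 (-1.92 ± 0.12), TMEM67 (-1.84 ± 0.15) and IFT22 (-1.93 ± 0.20, to a dim mean) were lower, as were IFT140 (-1.80), BBS7 (-1.76) and DYNC2H1 (-1.41), the retrograde motor. IFT80 was lower (-2.26 ± 0.38), but not with the RNA-quality covariate (adjusted p = 0.0707). The IFT genes IFT27 (-1.33), IFT52 (-1.12) and IFT74 (-0.47) were lower too. IFT57 and IFT20 were higher, by 1.11 ± 0.10 and 0.75 ± 0.11, and IFT57 read 10.53, 10.49, 10.86 and 10.76 in the 3D HGF arrays, against 9.62, 9.66, 9.61 and 9.33 in the 2D HGF arrays, without overlap. IFT88 (-0.11), KIF3A (-0.21) and CEP290 (-0.19) did not pass.

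Mesenchymal genes differed in both directions. SNAI2, a repressor of epithelial genes, averaged 12.90 ± 0.26 in 3D HGF and 13.24 ± 0.15 in 2D HGF (difference -0.34 ± 0.12, adjusted p = 0.0179), with overlapping arrays, and lost its call once 3D HGF replicates 1 and 4 were left out (adjusted p = 0.449) or with the RNA-quality covariate (adjusted p = 0.176), nor did it pass without 3D HGF replicate 1 or 4 or 2D HGF replicate 1 (adjusted p = 0.0558 to 0.0909). ZEB1, another such repressor, was higher, with 5.64, 5.85, 5.95 and 5.71 in the 3D HGF arrays, against 4.78, 5.22, 4.49 and 4.52 in the 2D HGF arrays, where the 2D HGF mean was dim (difference 1.04 ± 0.13). Vimentin (VIM) averaged 15.53 ± 0.16 in 3D HGF and 15.52 ± 0.07 in 2D HGF, with a 95% interval of -0.18 to 0.21 for the difference, and did not pass (adjusted p = 0.916). S100A4 was lower, at -0.97 ± 0.12. ACTA2, the smooth muscle actin, read 6.59, 3.05, 5.46 and 4.56 in the 3D HGF arrays, against 2.46, 2.44, 2.44 and 2.48 in the 2D HGF arrays, dim in both group means, so its difference of 2.46 ± 0.38 was 0.51 with the floor. In untreated cells ACTA2 differed by 7.91 ± 0.38, and the change between states was -5.45 ± 0.54. Of 11 genes 5 were higher and 2 lower (beside 28.5% and 37.5% of all genes), and with the RNA-quality covariate 2 were higher and 1 lower.

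Actin and YAP target genes had 3 of 15 higher and 6 lower. YAP is a transcriptional coactivator of stretched cells, and its target CCN1 read 13.31, 13.52, 13.31 and 12.74 in the 3D HGF arrays, against 14.12, 14.51, 14.72 and 14.66 in the 2D HGF arrays, with no overlap (difference -1.28 ± 0.19). AJUBA (-1.20 ± 0.18), CNN3 (-1.19 ± 0.10) and TAGLN2 (-1.02 ± 0.20) were lower too. The higher members were the YAP target CCN2 (0.65 ± 0.14) and the actin-binding genes TAGLN (0.69 ± 0.22) and TPM3 (0.50 ± 0.20). CCN2 and TAGLN did not pass with the RNA-quality covariate (adjusted p = 0.282 and 0.0927), and TPM3 did not pass without 3D HGF replicate 3 or 4 or 2D HGF replicate 1, 2 or 4 (adjusted p = 0.0513 to 0.16). With HGF the share of all genes was 28.5% higher and 37.5% lower. In untreated cells 12 of the same genes were higher in 3D and 1 lower (beside 24.7% and 28.3% of all genes), and the culture difference was lower with HGF in 11 and higher in 0 (beside 28.5% and 20.9%).

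Chemokine and cytokine genes differed in both directions, several of them from dim levels. CCL2, which attracts monocytes, read 8.08, 8.09, 7.83 and 7.79 in the 3D HGF arrays, against 3.18, 3.19, 2.90 and 3.22 in the 2D HGF arrays, with 2D HGF dim throughout (difference 4.82 ± 0.25, or 2.95 with the floor, adjusted p = 1.18e-14). CSF2, a growth factor of myeloid cells, read 8.52, 9.18, 8.59 and 8.48 in the 3D HGF arrays, against 5.77, 6.6, 6.13 and 6.47 in the 2D HGF arrays, with no overlap (difference 2.45 ± 0.31). SAA1, an acute phase protein, was dim in both groups, and its difference of 2.16 ± 0.34 was 0.24 with the floor, where it did not pass. CXCL8, the neutrophil attractant, was dim in both, at 3.15 in 3D HGF and 2.99 in 2D HGF (adjusted p = 0.411). PTGS2, the inducible prostaglandin synthase, was higher by 0.54 ± 0.23 (adjusted p = 0.0453), with overlapping arrays, and did not pass without 3D HGF replicate 2, 3 or 4 or 2D HGF replicate 1, 2 or 3 (adjusted p = 0.0565 to 0.147). NFKBIA, the NF-kB inhibitor, and TNFSF10, a death ligand, were lower, at -0.42 ± 0.094 and -1.44 ± 0.19. Of 20 tested genes 7 were higher and 5 lower (beside 28.5% and 37.5% of all genes), against 17 and 1 in untreated cells (beside 24.7% and 28.3%), where the median was 2.28. The difference was lower with HGF than without in 17 and higher in 0 (beside 28.5% and 20.9%).

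Interferon-response genes leaned lower, 14 of 26 against 2 higher (beside 37.5% and 28.5% of all genes). ISG20, an RNA exonuclease, read 1.75, 1.75, 1.70 and 1.68 in the 3D HGF arrays, against 9.08, 8.70, 8.64 and 8.80 in the 2D HGF arrays. It was dim in every 3D HGF array and far above that in every 2D HGF array, with the largest difference in size among the named genes (-7.08 ± 0.10, or -3.80 with the floor, adjusted p = 2.37e-26). The antiviral helicase DDX60 read 4.61, 4.05, 4.04 and 4.61 in the 3D HGF arrays, against 9.53, 9.32, 9.31 and 9.36 in the 2D HGF arrays, dim in all 3D HGF arrays (difference -5.05 ± 0.16). IFI44 (-3.01 ± 0.15) and IFI44L (-2.94 ± 0.13), both dim in 3D HGF, USP18 (-2.17 ± 0.13), MX1 (-1.63), OAS2 (-1.15) and ISG15 (-1.19) were lower. GBP5, a guanylate-binding protein, was higher, with 5.94, 6.15, 6.30 and 6.21 in the 3D HGF arrays, against 3.04, 2.91, 3.06 and 3.07 in the 2D HGF arrays. The antigen presentation genes TAP1 (0.048), TAP2 (-0.18), PSMB8 (0.21) and PSMB9 (-0.021) did not pass. In untreated cells the list leaned the other way, with 15 higher in 3D and 4 lower (beside 24.7% and 28.3% of all genes) and a median of 0.54. The culture difference was lower with HGF than without in 20 and higher in 2 (beside 28.5% and 20.9% of all genes). ISG20 and DDX60 did not differ past the threshold in untreated cells (0.16 ± 0.10 and 0.091 ± 0.16), and the change between states was -7.25 ± 0.14 and -5.14 ± 0.23.

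Stress and recycling genes leaned lower. Of 26 ATF4 and unfolded protein genes 14 were lower and 5 higher (beside 37.5% and 28.5% of all genes). DDIT3, the stress factor CHOP, read 6.93, 6.98, 7.52 and 7.01 in the 3D HGF arrays, against 9.86, 9.62, 9.74 and 10.26 in the 2D HGF arrays, with no overlap (difference -2.76 ± 0.15), and the lipoprotein receptor VLDLR (-3.48 ± 0.12), NUPR1 (-2.58 ± 0.12) and the amino acid transporter SLC1A4 (-2.18 ± 0.13) were lower. Of genes for protein folding in the endoplasmic reticulum, SDF2L1 was higher by 1.77 ± 0.094, MANF by 0.56 ± 0.10 and HSP90B1 by 0.47 ± 0.061, DNAJB9 was lower, at -0.93, and HSPA5 (0.13) and DNAJC3 (0.18) did not pass. In the growth arrest, mTOR and autophagy list 13 of 18 were lower and 1 higher, beside 37.5% and 28.5% of all genes. The higher one was MTOR itself (1.03 ± 0.12). GABARAPL1, which builds autophagosomes, read 8.52, 8.29, 8.44 and 7.99 in the 3D HGF arrays, against 11.50, 11.37, 11.44 and 11.27 in the 2D HGF arrays, with no overlap (difference -3.08 ± 0.10), and WIPI1 (-1.82 ± 0.12), LAMP2 (-1.56 ± 0.10), ATG7 (-1.48 ± 0.13) and the mTOR inhibitor DEPTOR (-2.44 ± 0.43, to a dim mean) were lower.

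Apart from the cytochrome c step, the mitochondrial respiration genes that passed differed by under 1 log2 unit. CYCS, cytochrome c, read 13.96, 14.27, 14.27 and 14.13 in the 3D HGF arrays, against 11.77, 11.83, 11.70 and 11.46 in the 2D HGF arrays, and CYC1, cytochrome c1, read 11.65, 11.96, 11.86 and 11.62 in the 3D HGF arrays, against 9.83, 9.46, 9.97 and 9.53 in the 2D HGF arrays. Neither overlapped between cultures (differences 2.47 ± 0.11 and 2.07 ± 0.12). The other members that passed lay between -0.71 ± 0.11 (SDHD) and 0.68 ± 0.089 (UQCRFS1). In total 15 of 37 were higher and 4 lower, beside 28.5% and 37.5% of all genes. Lipid genes differed in both directions, with 6 of 25 higher and 8 lower (beside 28.5% and 37.5% of all genes). ELOVL6, a fatty acid elongase, was higher by 2.68 ± 0.35, from a dim mean, with STARD4, a cholesterol carrier (1.42 ± 0.093), FASN, the fatty acid synthase (1.03 ± 0.15), and ACACA (0.76 ± 0.13). The sterol enzymes HMGCS1 (0.61 ± 0.16) and MVD (0.57) were higher. The sterol enzymes DHCR7 (-1.70 ± 0.15), PMVK (-1.53 ± 0.15) and TM7SF2 (-1.32 ± 0.092) and the sterol sensor partner INSIG1 (-0.68 ± 0.13) were lower, and SQLE (-0.039), FDFT1 (0.16) and CYP51A1 (0.038) did not pass. Of 17 apoptosis genes 5 were higher, or 2 with the RNA-quality covariate, and 4 lower, where 28.5% of all genes were higher and 37.5% lower. The stress kinase MAP3K5 was higher by 3.05 ± 0.56 with overlapping arrays, and the mitochondrial protease HTRA2 was lower, at -1.28 ± 0.08.

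The 15 largest gains and the 15 largest losses, were taken among genes whose arrays did not overlap and whose higher group was not dim, so those properties follow from the choice. STEAP2, a metalloreductase of iron and copper uptake, was the largest gain, with 9.29, 8.03, 9.29 and 8.72 in the 3D HGF arrays, against 3.33, 3.82, 4.21 and 4.61 in the 2D HGF arrays. The 2D HGF arrays were all dim and the 3D HGF arrays all lay at log2 8 or more (difference 4.84 ± 0.27, or 3.83 with the floor, adjusted p = 5.05e-14). TIGAR, which lowers fructose-2,6-bisphosphate and so slows glycolysis, read 10.91, 10.94, 10.72 and 11.22 in the 3D HGF arrays, against 6.34, 6.88, 6.53 and 6.56 in the 2D HGF arrays. Both groups were above the dim range with no overlap, a 20.7-fold higher level (difference 4.37 ± 0.12, adjusted p = 2.22e-20). SNHG3, a host gene of small nucleolar RNAs, was higher by 3.27 ± 0.18, the tRNA methyltransferase METTL1 by 3.19 ± 0.18, the membrane protein TM4SF1 by 3.11 ± 0.29 and the peptide-processing enzyme ECE2 by 3.17 ± 0.13. HACD3 (3.43 ± 0.50), LRRC59 (4.09 ± 0.33) and MTRR, which reactivates methionine synthase (2.92 ± 0.37), were higher over dim 2D HGF means, as was METTL1.

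On the other side KLHL24, an adaptor of a ubiquitin ligase, read 3.22, 3.19, 2.87 and 2.57 in the 3D HGF arrays, against 8.52, 8.46, 8.44 and 8.34 in the 2D HGF arrays, dim in every 3D HGF array (difference -5.48 ± 0.14). ENOSF1 (-6.00 ± 0.16), SPAG4 (-5.05 ± 0.19), HYKK, a hydroxylysine kinase (-4.81 ± 0.14), ZNF395 (-4.70 ± 0.16) and INKA1, an inhibitor of the kinase PAK4 (-4.65 ± 0.092), were likewise dim in 3D HGF, and CLCN4, a chloride and proton exchanger, averaged 5.69 ± 0.96 in 3D HGF and 10.32 ± 0.25 in 2D HGF. Of the 15 losses 12 were dim in 3D HGF, and of the 15 gains 8 were dim in 2D HGF.

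**Figure D4:**
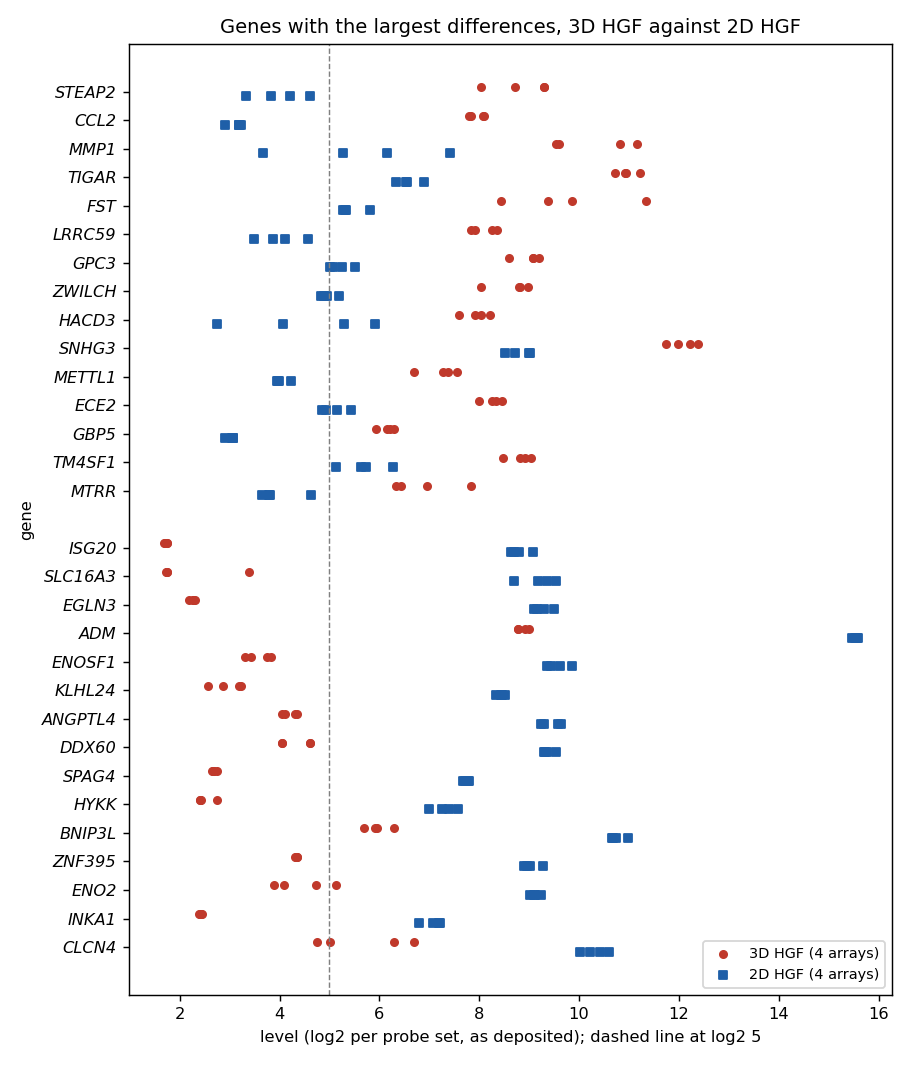
Log2 levels of the 15 genes with the largest gains (upper block) and the 15 with the largest losses (lower block), in each 3D HGF array and each 2D HGF array, with log2 5 as a dashed line. In all 30 rows the 2 sets of 4 arrays are apart.

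Setting these differences beside those of untreated cells, which share no arrays with them, showed genes with a culture difference in both states and genes with it in 1. Of the 1955 genes higher with HGF, 965 were also higher in 3D without it (49.4% of this list and 57.0% of the 1693 higher in untreated cells), 185 were lower and 805 did not pass. Of the 2575 lower with HGF, 1265 were also lower without it (49.1% of this list and 65.2% of the 1941), 308 were higher and 1002 did not pass. The culture difference itself was higher with HGF than without in 1435 of 6862 genes (20.9%) and lower in 1957 (28.5%).

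STEAP2, MMP1 and GPC3 among the gains, and ISG20, DDX60, KLHL24 and INKA1 among the losses, did not differ past the threshold between untreated cultures. For STEAP2 the untreated difference was -0.13 ± 0.27 and the change 4.97 ± 0.39 (adjusted p = 1.1e-10). With PD-98059 in both cultures STEAP2 differed by 0.051 and with U0126 by -0.32 (adjusted p = 0.907 and 0.445), GPC3 by -0.17 and 0.06 (0.483 and 0.846), and ISG20 by 0.072 and 0.054 (0.604 and 0.744). Whether these differ from the values without inhibitor was not tested. EGLN3 and TIGAR kept their direction there, EGLN3 with -3.94 and -3.06, and TIGAR with 2.43 and 1.83.

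CCL2 had a culture difference that was smaller with HGF. It differed by 4.82 ± 0.25 with HGF and by 10.07 ± 0.25 in untreated cells (change -5.25 ± 0.36, adjusted p = 1.04e-11), and by 8.14 and 9.65 with PD-98059 and U0126. MMP13 (2.19 ± 0.34 with HGF, 8.72 ± 0.34 without it), MMP9 (2.85 ± 0.24 with, 6.17 ± 0.24 without) and CSF2 (2.45 ± 0.31 with, 6.47 ± 0.31 without) had the same order, with adjusted p of 4.64e-11, 1.74e-08 and 3.37e-08 for the change. For CXCL8 a difference of 0.16 ± 0.17 with HGF stood beside 8.02 ± 0.17 in untreated cells (adjusted p = 1.4e-18 for the change). Some genes differed in opposite directions in the 2 states, each with a change that passed. TFPI2 was lower in 3D with HGF (-2.50 ± 0.23) and higher without it (4.98 ± 0.23), and so were PLAT (-2.35 ± 0.14 with, 1.56 ± 0.14 without), EGFR (-1.0 ± 0.12 with, 0.75 ± 0.12 without), DDIT3 (-2.76 ± 0.15 with, 0.69 ± 0.15 without) and INSIG1 (-0.68 ± 0.13 with, 1.41 ± 0.13 without). ELOVL6 was higher in 3D with HGF (2.68 ± 0.35) and lower without it (-1.93 ± 0.35), as was MAP3K5 (3.05 ± 0.56 with, -1.95 ± 0.56 without).

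**Figure D5:**
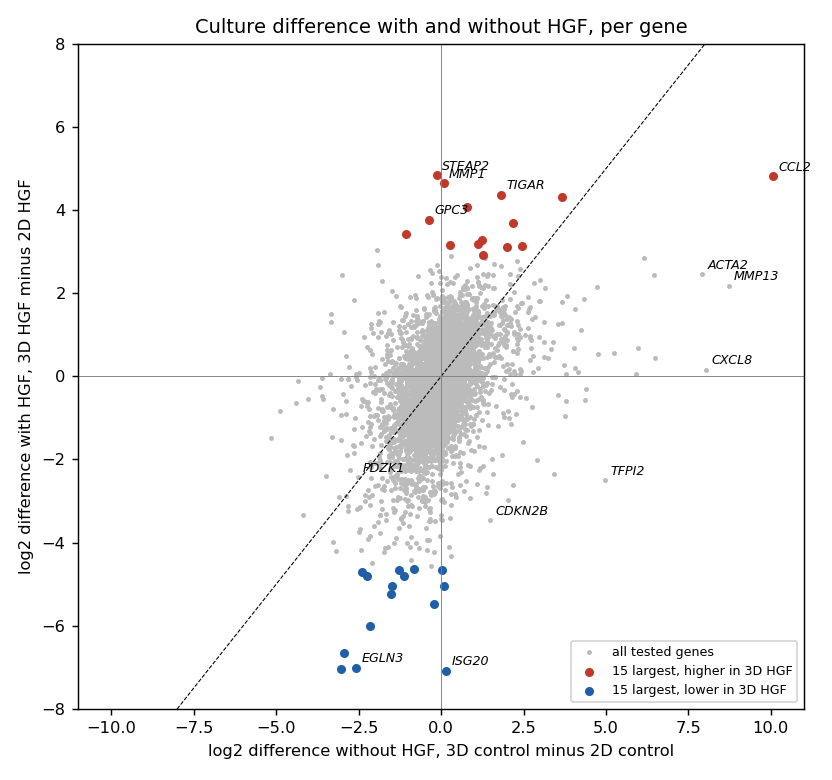
Each point is a gene, with the log2 difference between 3D and 2D control cells across and between 3D and 2D HGF cells up, and the dashed line marks equal differences. The 15 largest gains with HGF (red) and the 15 largest losses (blue) are marked, and STEAP2, MMP1 and ISG20 lie near 0 on the horizontal axis while CCL2 lies at its right end.

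Many genes differed little. The 95% interval of the difference lay within 1 log2 unit of 0 in 9847 of 16571 tested probe sets (59.4%) and within 0.5 in 4118 (24.9%). VIM and TIMP1 were named examples with intervals of -0.18 to 0.21 and -0.76 to 0.38. The number of arrays bounds these intervals, and an interval that includes 0 does not show equal levels.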

How the data were processed

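MDCK total RNA was hybridised to canine expression arrays of 43035 probe sets, 111 of them controls. The deposited values are log2 signals per probe set. Per the submitters' processing notes, MAS5, GCRMA, Affymetrix Expression Console 1.1 and Partek 6.6 were used, with roles and order not given there.

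Of 42924 other probe sets, the 16571 at log2 5 or more in at least 3 of 29 arrays entered limma 3.58.1 under R 4.3.3 (lmFit over 8 group means, eBayes with trend, Benjamini-Hochberg adjustment over all tested probe sets, threshold 0.05, two-sided). Every adjusted p is from limma unless another test is named. Of these, 12186 carry 1 gene symbol in the platform annotation, 238 several and 4147 none. Each of 6862 genes (symbols of the LOC type left out) is represented by its probe set with the highest mean over 29 arrays. Genes were named by rule: the 15 largest differences in each direction without overlap between arrays and with a higher group at log2 5 or more, up to 5 passing members a direction of each of 30 lists, and a fixed set. The members, lists and rules were chosen with earlier results of these data known.

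Data were simulated with independent normal noise, a spread equal in all groups and 200 changed probe sets. On these the same fit recovered 52.2%, 85.1% and 100% of changes of 0.5, 1 and 2 log2 units, and 3.07% of calls were false. In the real data the 3D HGF arrays varied more than the others and far more probe sets passed, so these rates cannot be carried over to them. Alternatives covered the filter, the fit, scaling, array weights, a floor at log2 5, the replicate block, the RNA-quality covariate and leaving out arrays. Depth per array does not apply, and the number of arrays limits precision. Sequences were not used here, and 1 of the 30 lists is not reported here.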

Additional observations from a re-analysis of the deposited data

Results flagged for a closer look

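Some genes stood out because 1 array lay far from the other 3 of its group, by Dixon's criterion at the 95% level. This held in 9 of 118 groups examined (59 genes in 2 groups), where chance alone flags about 1 in 20. SLC16A3 in 3D HGF replicate 2 was 3.38, against 1.72 to 1.75 in the other arrays, all of them dim. CSF2 in 3D HGF replicate 2 was 9.18, against 8.48 to 8.59. DDIT3 in 3D HGF replicate 3 was 7.52, against 6.93 to 7.01, and DUSP5 in 3D HGF replicate 1 was 9.21, against 10.07 to 10.23. CXCL8 in 3D HGF replicate 1 was 3.40, against 3.05 to 3.09. In 2D HGF, replicate 4 was 5.81 for FST, against 5.27 to 5.34, and 9.33 for IFT57, against 9.61 to 9.66. MMP9 in 2D HGF replicate 2 was 3.41, against 3.96 to 4.0, and CCL2 in 2D HGF replicate 3 was 2.90, against 3.18 to 3.22.

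The culture difference was not the same with HGF as without. Tested as an interaction over all probe sets, it was higher with HGF in 3645 of 16571 and lower in 4366. Of the 30 genes given in both states 28 passed that test, beside 49.4% of all genes, and 11 of them differed between cultures in opposite directions in the 2 states. These 30 were chosen for the text with their values known, so the counts follow in part from that choice. The change, with HGF minus without, was -7.48 for TFPI2, -4.95 for CDKN2B, -4.06 for S100A2, -4.0 for CDKN1A, -3.91 for PLAT, -3.45 for DDIT3, -2.08 for INSIG1, -2.01 for DSP and -1.75 for EGFR. It was 5.0 for MAP3K5 and 4.61 for ELOVL6.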

How the results depend on the processing

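Of 4791 probe sets higher and 5912 lower in 3D HGF, between 4459 and 4881 were higher and between 5554 and 5875 lower when each of the 8 HGF arrays was left out in turn. The untreated and inhibitor arrays were not left out. Testing all probe sets with no filter gave 17408 higher and 6353 lower, and asking for at least 2-fold left 1684 and 2531. Scaling moved the split between directions. Median centring gave 5866 higher and 5160 lower, and a further quantile normalization 5938 and 5439, since they move the median over all probe sets to 0.0797 and 0.0505. With the RNA-quality index as a covariate 4417 were higher and 5291 lower, and with the compared groups alone 4102 and 5149. The interaction counts, 3645 and 4366, ran from 3382 to 3920 and from 4051 to 4427 with each HGF array left out. The RNA-quality difference ran from 0.577 to 1.03 likewise. With the replicate block, the counts were 4759 and 5881 (3611 and 4307 for the interaction). Same-numbered arrays deviated from their group means with correlations of -0.176, -0.176, 0.126 and -0.163. Differently numbered arrays gave -0.285 to 0.382, so no pairing by number showed, but so few correlations cannot exclude one. Of 242 named genes that passed, 186 passed in every alternative and 238 kept their sign. SERPINE2 and SHC1 turned sign with the RNA-quality covariate (-0.0629 and -0.0687), and the cause was not tested. The floor at log2 5 bounds folds of dim genes, with 60 probe sets higher and 206 lower by at least 8-fold becoming 30 and 131.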
